A study of Mus musculus with 8 samples.

Results

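The 10 genes described here encode products of Paneth cells other than the defensins: *Lyz1*, *Mmp7*, *Itln1*, *Mptx1*, *Mptx2*, *Ang4*, *Reg3b*, *Reg3g*, *Pla2g2a* and *Habp2*. They were chosen by symbol in the table of normalised counts and joined by Ensembl identifier to the table of raw counts, which holds 53801 genes. All 10 were found, and all 10 passed the filter on low counts that left 16445 genes for the test. Messenger RNA was measured in sorted Lgr5-GFP+ intestinal stem cells of 8 mice, with 1 library per mouse. Antibodies to EpCAM, CD45 and CD24 were also used in the sort, and the gates set on them are not given in the sources used here. All 8 mice carried a β-catenin allele that Cre turns into a stabilised form (gain of function, β-catGOF), which keeps canonical Wnt signalling switched on. They also carried a CreERT2 driven from the *Lgr5* locus. Tamoxifen activates it in Lgr5-expressing cells, which pass the recombined alleles to their progeny. In 4 mice both copies of *Mll1* (*Kmt2a*, a histone H3K4 methyltransferase) were targeted (J_7075, J_7096, J_7135 and J_7136, labelled Mll1-/-), and in the other 4 mice 1 copy was (J_7079, J_7100, J_7134 and J_7139, labelled Mll1+/-). Tamoxifen was given at 50 mg/kg on 3 consecutive days to mice 4 to 6 weeks old, and the cells were taken 10 days after induction. In β-catGOF Mll1-/- intestines the study saw crypts without recombination, which still expressed Mll1, beside recombined ones. The sort was on Lgr5-GFP and not on recombination, so the share of recombined cells in each library is not known. No library with unmutated β-catenin was analysed here, so the levels below carry no comparison with normal stem cells.

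Paneth cells sit at the base of small intestinal crypts between the Lgr5+ stem cells. They secrete granules that hold antimicrobial proteins, and they supply the stem cells with growth factors and Wnt and Notch ligands. Their maturation depends on Wnt signalling, and *Mmp7* is among the Wnt targets of these cells. Lysozyme (*Lyz1*) digests bacterial peptidoglycan, *Pla2g2a* encodes a secreted phospholipase that attacks bacterial membranes, and *Ang4* encodes a microbicidal ribonuclease of the angiogenin family. *Reg3b* and *Reg3g* encode C-type lectins that bind bacterial cell walls, *Itln1* encodes a lectin for microbial sugars, and *Mptx1* and *Mptx2* encode mucosal pentraxins. *Mmp7* encodes matrilysin, the protease that cuts mouse pro-defensins into their active form. *Habp2* encodes a hyaluronan-binding serine protease.

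On GRCm38 (mm10) 3 of the genes lie on chromosome 1, namely *Itln1* (ENSMUSG00000038209, 171518122 to 171535294, minus strand), *Mptx2* (ENSMUSG00000079180, 173274382 to 173277777, minus) and *Mptx1* (ENSMUSG00000026531, 174330518 to 174332873, plus). *Reg3b* (ENSMUSG00000071356, 78370657 to 78373466, plus) and *Reg3g* (ENSMUSG00000030017, 78466269 to 78468872, minus) lie near each other on chromosome 6. *Pla2g2a* (ENSMUSG00000058908) lies on chromosome 4 from 138831857 to 138835186 on the plus strand, and its annotated class is polymorphic pseudogene, a gene that is intact in some mouse strains and disrupted in others. *Mmp7* (ENSMUSG00000018623) lies on chromosome 9 from 7692090 to 7699585 (plus), *Lyz1* (ENSMUSG00000069515) on chromosome 10 from 117287797 to 117292868 (minus), *Ang4* (ENSMUSG00000060615) on chromosome 14 from 51763878 to 51773590 (minus) and *Habp2* (ENSMUSG00000025075) on chromosome 19 from 56287137 to 56320822 (plus).

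The 5′ flanks of the paralogous pairs and of *Mmp7* are shown because *Mptx2*, *Reg3b* and *Reg3g* varied together over the 8 libraries. *Mmp7* did not follow them when both labels were pooled. For *Mptx1* no relation with its paralog *Mptx2* was detected (Pearson's r = 0.57, exact permutation p = 0.125, adjusted 0.307). *Lyz1* and *Itln1* also varied with *Mptx2* (r = 0.84 and 0.83), and their flanks are not printed. Whether the flanks have a part in these relations was not tested. The sequences are from RefSeq (GRCm38.p6) and give the 150 bases before the start that RefSeq gives each gene, 5′ to 3′ on the strand of the gene. The gene coordinates above are those of the count table (Ensembl), and the annotations place some starts differently. The RefSeq start of *Reg3b* lies 228 bases inside the Ensembl gene, so the whole printed stretch of *Reg3b* does too, and that of *Mptx2* lies 21 bases inside. For *Mptx1* and *Mmp7* the starts are the same, and for *Reg3g* they are 2 bases apart. Capitals mark 3 short motifs on either strand. The TATA box was searched as TATAAA, which reads TTTATA on the other strand. Its variant was searched as TATAAG. The core of the site of TCF/LEF, the factors that β-catenin joins, was searched as CTTTGA.
Mptx1: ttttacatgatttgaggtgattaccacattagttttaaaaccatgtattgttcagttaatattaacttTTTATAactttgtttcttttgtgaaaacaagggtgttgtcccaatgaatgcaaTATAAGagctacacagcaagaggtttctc
Mptx2: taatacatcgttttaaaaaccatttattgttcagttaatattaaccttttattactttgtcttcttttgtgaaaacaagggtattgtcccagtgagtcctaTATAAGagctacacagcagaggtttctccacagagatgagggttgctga
Reg3b: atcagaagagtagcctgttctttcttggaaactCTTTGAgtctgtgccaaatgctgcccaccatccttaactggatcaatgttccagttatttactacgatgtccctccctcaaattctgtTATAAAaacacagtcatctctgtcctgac
Reg3g: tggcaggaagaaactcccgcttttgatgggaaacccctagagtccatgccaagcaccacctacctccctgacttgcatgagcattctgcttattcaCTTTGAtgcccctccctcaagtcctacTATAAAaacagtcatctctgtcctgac
Mmp7: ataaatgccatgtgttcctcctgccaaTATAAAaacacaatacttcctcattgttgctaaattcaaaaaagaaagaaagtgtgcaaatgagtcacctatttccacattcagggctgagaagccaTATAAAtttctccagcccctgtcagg

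These stretches are chr1:174330368-174330517 (*Mptx1*), chr1:173277757-173277906 (*Mptx2*), chr6:78370735-78370884 (*Reg3b*), chr6:78468875-78469024 (*Reg3g*) and chr9:7691940-7692089 (*Mmp7*). The printed flanks of *Mptx1* and *Mptx2* were identical at 117 of 173 alignment columns (67.6%), and those of *Reg3b* and *Reg3g* at 107 of 154 (69.5%). Columns with a gap count as not identical, here and below, so these shares are lower than the identity of the bases that pair. TATAAG begins 29 bases before the start of *Mptx1* and 49 bases before that of *Mptx2*. Their printed stretches are therefore offset, and the offset adds gap columns. Over windows of 300 bases (250 before and 50 after the start, 9 of the 10 genes matched) the 2 pairs reached 78.0% and 69.0%, and the next closest pair of genes, *Itln1* and *Ang4*, 53.5%. TATAAA was found on either strand in the windows of 4 of the 9 genes (*Mmp7*, *Mptx1*, *Reg3b*, *Reg3g*), against 13.6% of 32544 RefSeq windows of the same length, and TATAAG in those of *Mptx1* and *Mptx2*, against 7.43%. CTTTGA was found in the windows of *Mmp7*, *Mptx1*, *Reg3b* and *Reg3g*, against 16.0% of all windows, and in *Mmp7* and *Mptx1* it lies outside the printed bases. The E-box CAGCTG was found for *Lyz1*, against 16.4% of all windows. The STAT motif TTCNNNGAA, which reads the same on both strands, was found for *Ang4* and *Reg3b*, against 8.33%. The GATA motif AGATAA was found for *Mmp7* and *Mptx1*, against 11.2%. The Fox motif TGTTTAC was found for none of the 9, against 3.66%. No match overlapped another in the windows of these genes. These matches describe letters in a window and say nothing on whether a factor binds there.

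Depth was even, with 14468751 to 16847793 counts on genes per library, and a floor of 3 counts corresponded to 0.162 to 0.240 CPM (counts relative to the TMM-scaled library size). *Kmt2a*, the targeted gene, lay at 53.4 to 78.2 CPM in the libraries labelled Mll1-/- and at 48.8 to 64.7 CPM in those labelled Mll1+/- (log2 fold change 0.24 ± 0.17, SE, adjusted p = 0.710 by edgeR). It was thus not lower in the libraries labelled Mll1-/-. The counts cover the whole gene and not the deleted part, and the share of recombined cells is not known. Every direction below is drawn between libraries named by their labels. *Ctnnb1*, which encodes β-catenin, had a log2 fold change of 0.10 (adjusted p = 0.859, edgeR). *Lgr5*, the gene whose reporter defined the sort, was at 231 to 276 CPM and 214 to 307 CPM under the 2 labels (adjusted p = 0.933, edgeR). J_7135 stood apart: it was the only library with high counts on both *Xist* (3838) and Y-linked genes (3043), and its highest Spearman correlation over genes with another library was 0.909, against 0.947 to 0.966 for the others. Header numbers split the libraries into 2 runs of consecutive library numbers (J_7075, J_7079, J_7096 and J_7100 in run 1, the rest in run 2). Each run has 2 libraries of each label, and differences within each run are given beside the pooled ones. In run 1 J_7075 and J_7096 (Mll1-/-) had 11 and 49 counts on *Xist* and 5204 and 5555 on Y-linked genes. J_7079 and J_7100 (Mll1+/-) had 8740 and 7357 on *Xist* and 9 and 7 on Y-linked genes. Sex and label thus coincide in run 1 and cannot be told apart there. In run 2 the *Xist* and Y-linked counts were 0 and 3680 in J_7134, 6251 and 13 in J_7139, and 11554 and 7 in J_7136. Below, 4 values of a gene under a label follow the order J_7075, J_7096, J_7135, J_7136 for Mll1-/- and J_7079, J_7100, J_7134, J_7139 for Mll1+/-.

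Differences are the libraries labelled Mll1-/- minus those labelled Mll1+/-, from edgeR's two-sided quasi-likelihood test, and each adjusted p is Benjamini-Hochberg adjusted over 16445 genes, with the threshold at 0.1. None of the 10 genes passed it, where 0.0851% of all genes did (14 genes). At an unadjusted p under 0.05 there were 5 genes, *Mmp7* with a higher level in the libraries labelled Mll1-/- and *Itln1*, *Mptx2*, *Reg3b* and *Reg3g* with a lower one, against 5.40% of all tested genes higher and 3.75% lower. The DESeq2 Wald test put these 5 past an adjusted p of 0.1, against 2.74% of the 14817 genes to which it gave an adjusted p, and limma-voom put 1 past it (*Mmp7*), against 0.626% of 16445 genes. Without J_7135 the counts by edgeR were again 0 and 5, and the log2 fold changes were 1.03 for *Mmp7*, -0.87 for *Itln1*, -1.59 for *Mptx2*, -1.01 for *Reg3b*, -1.11 for *Reg3g*, -0.66 for *Lyz1* and 0.50 for *Pla2g2a*. The libraries of the 2 labels did not overlap for *Mmp7* (higher, as for 3.34% of all genes) and for *Itln1* and *Reg3g* (lower, as for 2.94%). The median log2 fold change of the 10 genes was -0.87, with 2 above and 8 below 0, and that of all tested genes was 0.01. In bulk libraries such as these, fewer cells of a type and less RNA per cell cannot be told apart.

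**Figure D1:**
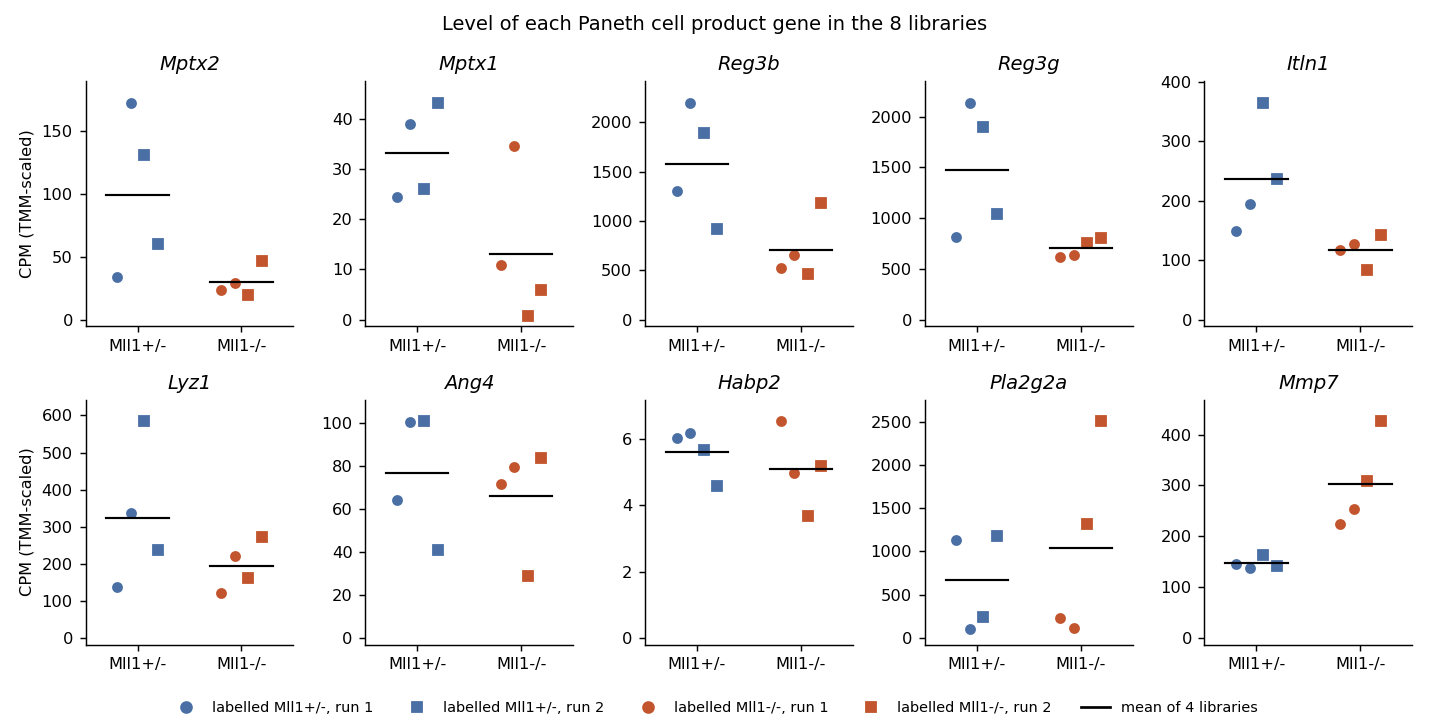
CPM (TMM-scaled, linear axes) of the 10 genes in each library, by label; circles are run 1, squares run 2 and bars the mean of 4 libraries. The labels do not overlap for *Mmp7*, *Itln1* and *Reg3g*, and *Pla2g2a* holds high and low libraries under both labels.

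**Figure D2:**
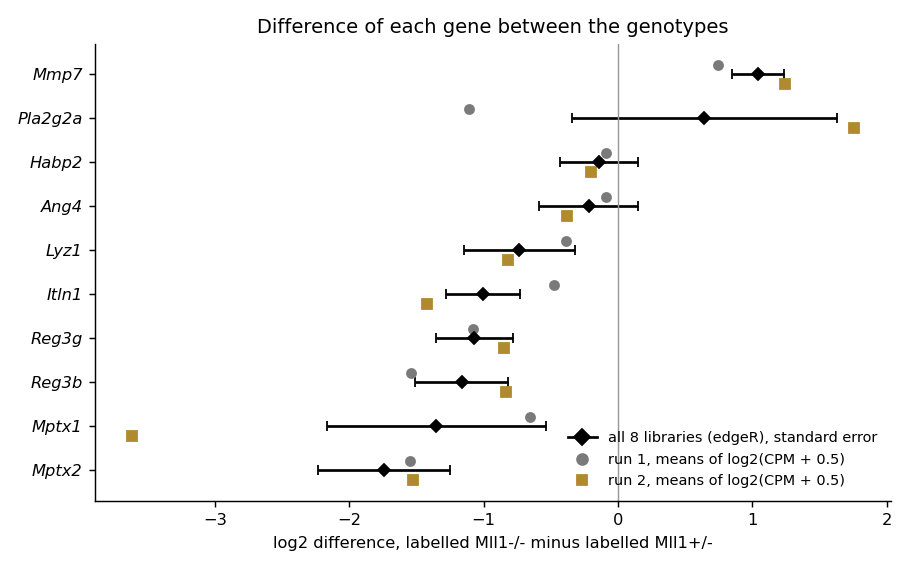
Log2 difference of each gene, libraries labelled Mll1-/- minus those labelled Mll1+/-, with the standard error of the edgeR fit (diamonds) and the difference of the mean log2(CPM + 0.5) within each run (circles, squares). *Mmp7* lies at 1.04 and *Mptx2* at -1.74, and only *Pla2g2a* changes sign between the runs.

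Among the enzymes, *Mmp7* had the smallest p. It was at 223, 254, 308 and 426 CPM in the libraries labelled Mll1-/-, and at 146, 137, 164 and 142 CPM in those labelled Mll1+/-. Each library labelled Mll1-/- was thus above each labelled Mll1+/-, and the spread was wide in the former and narrow in the latter. Means of 303 ± 89.4 and 147 ± 11.6 CPM (SD, n = 4 each) correspond to a log2 fold change of 1.04 ± 0.19 (SE, adjusted p = 0.154), and the log2 differences were 0.75 in run 1 and 1.24 in run 2. The adjusted p of *Mmp7* was 0.085 by limma-voom, 0.065 without a filter on low counts and 0.085 with at least 10 counts in every library, so the filter and the test decide on which side of 0.1 it falls. Of the exonic bases of *Mmp7*, 11.5% overlap AV064505 on the other strand, and the strand was not used in counting.

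*Lyz1*, lysozyme, was at 122, 220.2, 163 and 273 CPM in the libraries labelled Mll1-/-, and at 137, 337, 584 and 237 CPM in those labelled Mll1+/-. The libraries overlapped, with J_7134 far above the rest and J_7079 near the lowest. The log2 fold change was -0.73 ± 0.41 (SE, adjusted p = 0.637), and it was -0.28 without J_7134. *Lyz2*, the lysozyme of macrophages, was at 0.706 to 5.92 CPM and shares 32.8% of its 31-base words with *Lyz1*, so its few reads cannot be separated with certainty from those of its paralog.

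*Ang4* was at 71.5, 79.6, 29.1 and 83.6 CPM in the libraries labelled Mll1-/-, and at 64.4, 101, 101 and 41.0 CPM in those labelled Mll1+/-. Both labels spanned nearly the same range, and J_7135 lay far below the other 3 libraries of its label. Its log2 fold change was -0.22 ± 0.37 (SE, adjusted p = 0.898), and without J_7135 it was 0.03. *Ang4* shares 13.8% of its 31-base words with other genes, *Ang5* above all (9.28%).

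*Pla2g2a*, the secreted phospholipase, varied more between the libraries of 1 label than between the labels. It was at 229, 113, 1316 and 2506 CPM in the libraries labelled Mll1-/-, and at 1138, 106, 244 and 1178 CPM in those labelled Mll1+/-. The levels fell into a low set of 106 to 244 CPM and a high set of 1138 to 2506 CPM, and each label held 2 libraries of each set. The log2 fold change of 0.64 ± 0.99 (SE, adjusted p = 0.887) stood over opposite values, -1.11 in run 1 and 1.76 in run 2, and it was -0.27 without J_7136 and -0.22 with the run as a block. Some other genes of the family were highest in the same 2 libraries as *Pla2g2a*. *Pla2g2f* was at 15.2 CPM in J_7135 and 23.5 CPM in J_7136 against 3.12 to 5.86 CPM elsewhere. *Pla2g5* (named after its values were seen) was at 63.5 and 59.8 CPM against 18.7 to 44.1 CPM, and *Pla2g3* at 3.24 and 3.27 CPM against 0.080 to 1.96 CPM. In J_7079 and J_7139, also of the high set, *Pla2g2f* was at 4.41 and 5.86 CPM, *Pla2g5* at 40.1 and 44.1 CPM and *Pla2g3* at 1.55 and 1.09 CPM. None of them shares a 31-base word with *Pla2g2a*. The related *Pla2g2c*, *Pla2g2d* and *Pla2g2e*, also named after their values were seen, did not follow it: each was under 1 CPM in every library, *Pla2g2c* and *Pla2g2e* had 0 counts in J_7135 and J_7136, and *Pla2g2d* was highest in J_7075 (0.529 CPM) and lowest in J_7135 (0.0539 CPM).

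*Habp2*, the serine protease, had the lowest mean of the 10 genes, at 6.53, 4.97, 3.67 and 5.17 CPM in the libraries labelled Mll1-/- and at 6.02, 6.17, 5.68 and 4.57 CPM in those labelled Mll1+/- (68 to 111 counts). It was the steadiest of the 10 genes, with 1.78 times between its highest and lowest library, and its log2 fold change was -0.14 ± 0.29 (SE, adjusted p = 0.919). Of its exonic bases 8.39% overlap *Nrap* on the other strand.

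Among the lectins, *Reg3g* was at 614, 633, 754 and 804 CPM in the libraries labelled Mll1-/- and at 813, 2137, 1901 and 1038 CPM in those labelled Mll1+/-. The libraries labelled Mll1-/- lay close together, all below those labelled Mll1+/-, with J_7136 just below J_7079. Means of 701 ± 92.6 and 1473 ± 645 CPM (SD, n = 4 each) correspond to a log2 fold change of -1.07 ± 0.29 (SE, adjusted p = 0.310). *Reg3b* was at 521, 654, 459 and 1185 CPM in the libraries labelled Mll1-/- and at 1307, 2199, 1892 and 918 CPM in those labelled Mll1+/-. Here J_7136 was above J_7139, so the labels overlapped. For *Reg3b* the log2 fold change was -1.16 ± 0.35 (SE, adjusted p = 0.371). Both genes differed in the same direction in each run, by -1.54 and -0.84 for *Reg3b* and by -1.08 and -0.85 for *Reg3g*.

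*Itln1* was at 117, 127, 83.7 and 142 CPM in the libraries labelled Mll1-/- and at 149, 193, 364 and 235 CPM in those labelled Mll1+/-. The labels did not overlap, although J_7136 and J_7079 were within a few CPM of each other. Means of 117 ± 24.7 and 236 ± 92.9 CPM (SD, n = 4 each) correspond to a log2 fold change of -1.0 ± 0.27 (SE, adjusted p = 0.321), with -0.48 in run 1 and -1.42 in run 2. It remained between -0.71 and -1.17 when any 1 library was left out.

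*Mptx2*, a pentraxin, had the most negative log2 fold change of the 10. It was at 23.3, 28.7, 19.6 and 46.7 CPM in the libraries labelled Mll1-/-, and at 33.9, 172, 130.5 and 59.8 CPM in those labelled Mll1+/-. Only J_7079 of the libraries labelled Mll1+/- fell into the range of the others. Means of 29.6 ± 12.04 and 99.1 ± 63.6 CPM (SD, n = 4 each) correspond to a log2 fold change of -1.74 ± 0.49 (SE, adjusted p = 0.349), with -1.55 in run 1 and -1.53 in run 2.

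*Mptx1* was at 10.8, 34.5, 0.701 (13 counts) and 5.89 CPM in the libraries labelled Mll1-/-, and at 24.5, 39.0, 26.1 and 43.3 CPM in those labelled Mll1+/-. The libraries labelled Mll1+/- were even, and of those labelled Mll1-/- only J_7096 reached them. The log2 fold change of -1.35 ± 0.82 (SE, adjusted p = 0.658) was -2.52 without J_7096 and -0.95 without J_7135, and the difference was -0.66 in run 1 and -3.62 in run 2. *Mptx1* and *Mptx2* share 25.0% of the 31-base words of *Mptx1*, so reads can be lost or exchanged between them.

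Levels between genes were compared per length, in CPM per kilobase of exon. In the libraries labelled Mll1+/- the order was *Reg3b* (1383 ± 504), *Pla2g2a* (718 ± 615), *Reg3g* (697 ± 305), *Lyz1* (256 ± 152), *Itln1* (206 ± 81.4), *Mmp7* (138 ± 10.9), *Mptx2* (125 ± 80.1), *Ang4* (108 ± 41.4), *Mptx1* (41.5 ± 11.7) and *Habp2* (1.76 ± 0.23), each CPM per kilobase as mean ± SD of 4 libraries. *Reg3b* was rank 49 and *Habp2* rank 11503 among all genes on this scale. Neighbours whose means differed by less than the larger of their SDs were *Pla2g2a* and *Reg3g*, *Lyz1* and *Itln1*, *Itln1* and *Mmp7*, *Mmp7* and *Mptx2*, and *Mptx2* and *Ang4*. In the libraries labelled Mll1-/- *Pla2g2a* (1122 ± 1203) and *Reg3b* (617 ± 289) led without being apart, and *Mmp7* (284 ± 83.7) came right before *Lyz1* (154 ± 52.2) and *Itln1* (103 ± 21.7).

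**Figure D3:**
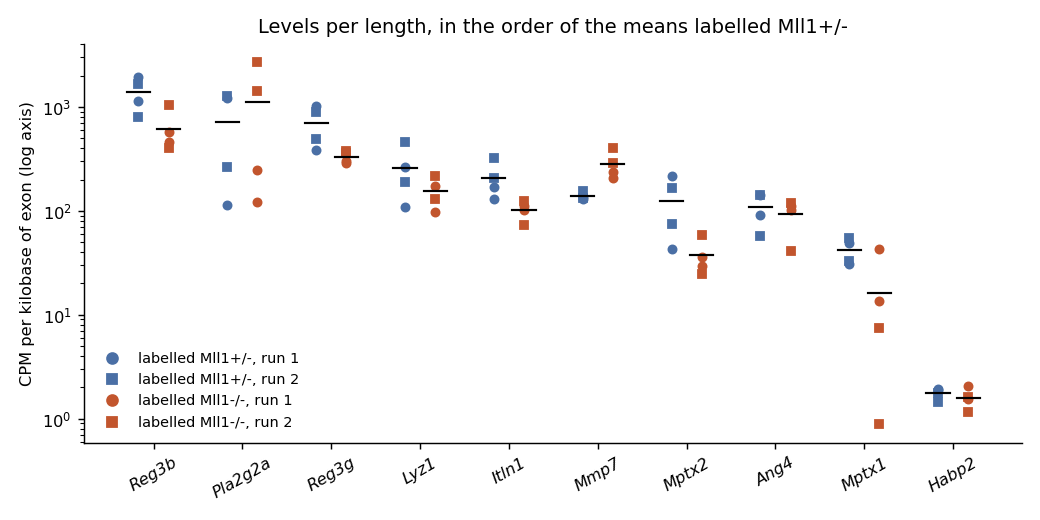
CPM per kilobase of exon (log axis) of the 10 genes in each library, in the order of the means of the libraries labelled Mll1+/-; bars are means of 4 libraries. *Reg3b* leads under this label at 1383 and *Habp2* is last at 1.76, and the 4 libraries of *Mmp7* lie closest together there.

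The question whether 2 genes differed in their response was put to the log2 ratio of their CPM (pseudocount 0.5) in each library, with an exact two-sided permutation test over the 70 assignments of 4 against 4 libraries, whose smallest p is 0.0286. For the 4 pairs of paralogs no difference was detected. The log2 ratio of *Mptx1* to *Mptx2* was -1.94 ± 1.92 in the libraries labelled Mll1-/- and -1.34 ± 1.01 in those labelled Mll1+/- (SD, n = 4 each, exact p = 0.629, adjusted over 4 pairs 0.771), and the difference was 0.89 in run 1, -2.09 in run 2 and 0.11 without J_7135. That of *Reg3b* to *Reg3g* was -0.09 ± 0.53 and 0.14 ± 0.38 (exact p = 0.486, adjusted 0.771). *Lyz1* to *Lyz2* gave exact p = 0.457 and *Ang4* to *Ang* exact p = 0.771. The counts of *Lyz2* were 0.578% (J_7075) to 1.28% (J_7139) of those of *Lyz1*, a range of 2.21 times, and at these low levels of *Lyz2* the log2 ratio depends on the pseudocount.

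*Mmp7* was set against each of the other 9 genes because its direction was known to differ, so these ratios describe that contrast and do not support it. The log2 ratio of *Mmp7* to *Reg3b* was -1.16 ± 0.40 in the libraries labelled Mll1-/- and -3.34 ± 0.55 in those labelled Mll1+/-, a difference of 2.18 (SD, n = 4 each, exact p = 0.0286). The differences of the ratio were 3.13 to *Mptx1*, 2.53 to *Mptx2*, 1.96 to *Reg3g*, 1.95 to *Itln1*, 1.6 to *Lyz1* and 1.14 to *Habp2*, each with the same exact p, and 0.0367 after adjustment over the 9 pairs. In these 7 pairs each library labelled Mll1-/- had a higher ratio than each labelled Mll1+/-, and the sign held in both runs. The ratio to *Ang4* differed by 1.23 (exact p = 0.0857) and that to *Pla2g2a* by 0.67 (exact p = 0.571). With 1 library left out, J_7135 included, the 7 differences kept their sign, and the smallest p that the test allows rises above 0.05.

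**Figure D4:**
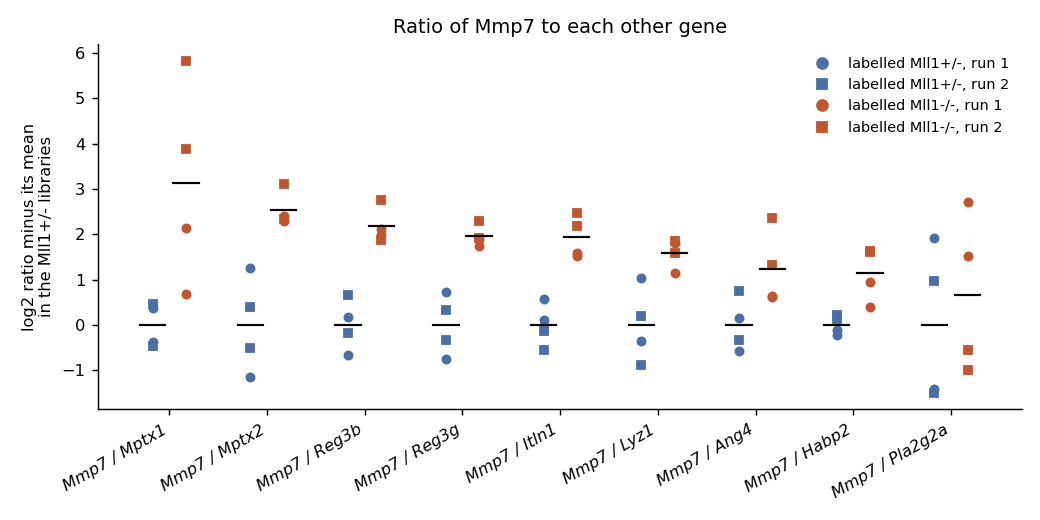
Log2 ratio of *Mmp7* to each other gene in every library, minus the mean of that ratio in the libraries labelled Mll1+/-; bars are means of 4 libraries, circles run 1 and squares run 2. The 2 labels are apart in 7 of the 9 ratios and overlap for *Ang4* and *Pla2g2a*.

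Across the 8 libraries, the log2 CPM of 5 genes followed the summed level of the 22 alpha-defensin genes, the main peptides of Paneth granules. This sum was 1173 to 2165 CPM in the libraries labelled Mll1-/- and 2054 to 5427 CPM in those labelled Mll1+/-. *Mptx2* had Pearson's r = 0.98 (exact permutation p = 4.96e-05, adjusted over 10 relations 0.000496) and Spearman's rho = 0.98 (exact permutation p = 0.000397, adjusted 0.00397), and r was 0.96 without J_7100 and J_7134, the 2 libraries farthest from its median. *Reg3g* had r = 0.94 and rho = 0.95 (exact permutation p = 0.000645 and 0.00114, adjusted 0.00322 and 0.0057), and r = 0.83 without the same 2 libraries. *Reg3b* had r = 0.91 and rho = 0.88 (exact permutation p = 0.00313 and 0.00724, adjusted 0.0104 and 0.0145), *Itln1* r = 0.86 and rho = 0.88 (0.00546 and 0.00724, adjusted 0.0136 and 0.0145) and *Lyz1* r = 0.83 and rho = 0.88 (0.0106 and 0.00724, adjusted 0.0213 and 0.0145), with r of 0.83, 0.83 and 0.72 without 2 libraries. *Mmp7* had r = -0.60 and rho = -0.60 (exact permutation p = 0.117 and 0.132, adjusted 0.167 and 0.165). Within the labels its r was 0.72 (Mll1-/-) and 0.09 (Mll1+/-), given as values only. Each label and each run holds 4 libraries, too few to test a correlation of its own. The sum and several of the genes were lower under the same label, and *Mmp7* was higher there, so these relations carry those differences too. The mitochondrial share of the counts varied as well: it was 18.9%, 22.3%, 17.1% and 27.1% in the libraries labelled Mll1-/-, and 24.9%, 28.7%, 30.1% and 23.3% in those labelled Mll1+/-. The 3 libraries with the lowest defensin sums (J_7075, J_7135 and J_7096) had the 3 lowest shares, and those with the 2 highest sums (J_7100 and J_7134) the 2 highest. The part of this share in the relations was not tested.

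Of the 45 pairs among the 10 genes, 6 had an adjusted p under 0.1 for Pearson's r, and all 6 joined *Mptx2*, *Reg3b*, *Reg3g*, *Lyz1* and *Itln1*. *Mptx2* and *Reg3g* were the closest (r = 0.96, exact permutation p = 0.000992, adjusted 0.0446, rho = 0.90, exact permutation p = 0.00456, adjusted 0.0685, r = 0.77 without J_7100 and J_7134), and *Mptx2* and *Reg3b* followed (r = 0.91, exact permutation p = 0.00228, adjusted 0.0513, rho = 0.90, exact permutation p = 0.00456, adjusted 0.0685, r = 0.76 without the same 2). No pair with *Mmp7*, *Ang4*, *Habp2* or *Mptx1* was among the 6, and those with *Pla2g2a*, although counted in the adjustment, are not given because its levels fell into 2 separate sets.

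**Figure D5:**
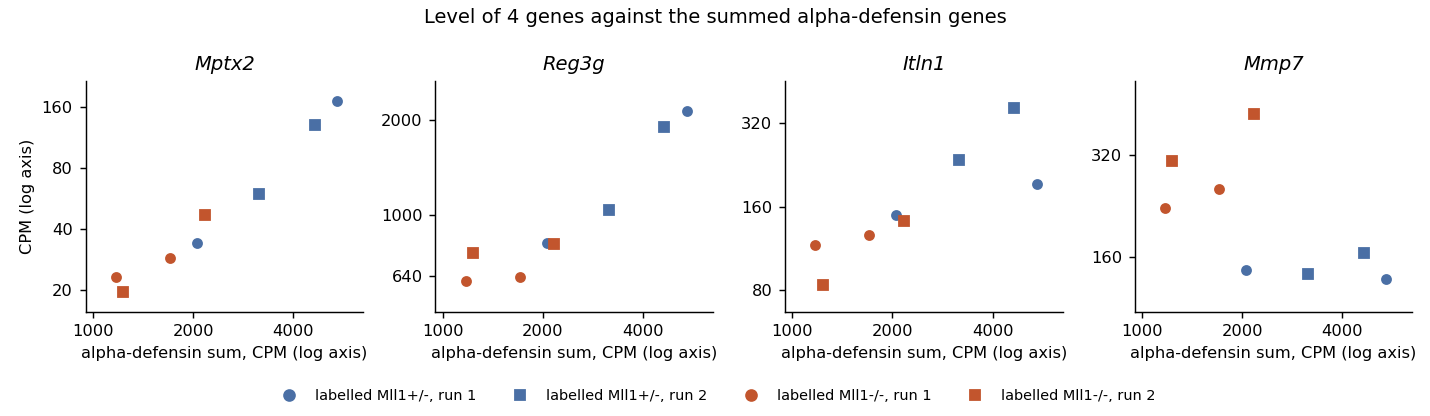
CPM of *Mptx2*, *Reg3g*, *Itln1* and *Mmp7* in each library against the summed CPM of 22 alpha-defensin genes (log axes); circles are run 1 and squares run 2. *Mptx2* rises with the sum over the 8 libraries (r = 0.98), and *Mmp7* is higher in each library labelled Mll1-/- than in any labelled Mll1+/-. The sums meet in only 1 library of each label, J_7079 (2054 CPM, run 1) and J_7136 (2165 CPM, run 2). J_7136 also has the highest *Mmp7*, so levels at an equal sum cannot be compared.

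The genes whose log2 CPM ran most like each member over the 8 libraries are given as a description, as the 3 highest r among the 16445 genes tested, for all members but *Pla2g2a*. For *Mptx2* they were the defensins *Defa24* (r = 0.98), *Defa30* (0.96) and *Defa17* (0.96), and for *Reg3g* AY761185 (0.96), *Defa-ps7* (0.96) and *Defa17* (0.96). For *Lyz1* they were *Lyz2* (0.96), *Gab3* (0.95) and *Hist1h2bb* (0.95), for *Mmp7* *Smpd3* (0.97), *Klc1* (0.97) and *Neat1* (0.96), and for *Itln1* *Eln* (0.99), *Mrpl42* (0.98) and *Gm2961* (0.98). *Reg3b* ran most like *Gm15745* (0.98), *mt-Nd2* (0.96) and *Tmem250-ps* (0.96), *Mptx1* like *C1d*, 1700066M21Rik and *Dynlt3* (each 0.99), *Ang4* like *Gm16005* (0.97), *Gm7173* (0.97) and *Elovl6* (0.97), and *Habp2* like *Rpl31-ps13* (0.99), *Kctd15* (0.98) and *Ccny* (0.97).

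The list of transcription factors, receptors, niche signals and other secreted enzymes of Paneth cells held 19 genes, 18 of them tested. None passed an adjusted p of 0.1 (edgeR), and the median log2 fold change was 0.19. At an unadjusted p under 0.05, 5 had a higher level in the libraries labelled Mll1-/- and 1 a lower one. Of all tested genes 5.40% were higher and 3.75% lower at this threshold. The DESeq2 Wald test called 5 of them at an adjusted p under 0.1, 4 higher and 1 lower, against 1.65% of all genes higher and 1.09% lower. Limma-voom called 0, against 0.341% of all genes higher and 0.286% lower. The lower gene was *Clps*, which encodes colipase, a cofactor of lipases (log2 fold change -1.83 ± 0.35, adjusted p = 0.165), at 4.98 to 10.9 CPM against 17.6 to 41.6 CPM. *Spdef*, a transcription factor of secretory cells (log2 fold change 2.41 ± 0.53, adjusted p = 0.205), lay at 4.10 to 15.0 CPM against 0.644 to 1.91 CPM. *Ephb3*, a receptor that keeps Paneth cells at the crypt base (log2 fold change 0.87 ± 0.20, adjusted p = 0.217), lay at 24.1 to 35.5 CPM against 12.7 to 17.4 CPM. The other 3 of the 6 were *Kit*, *Atoh1* and *Bhlha15*, named after their values were seen, each with a higher level in the libraries labelled Mll1-/-.

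Of the 22 alpha-defensin genes 18 were tested, all 18 had a log2 fold change below 0, and the median was -1.31. By edgeR 13 had an unadjusted p under 0.05 (3.75% of all genes lower) and 0 an adjusted p under 0.1. DESeq2 called 7 of them lower, against 1.09% of all genes, and limma-voom 0, against 0.286%. The lowest p belonged to *Defa17* (-1.72, adjusted p = 0.192), *Defa30* (-1.34, adjusted p = 0.200) and *Defa29* (-1.78, adjusted p = 0.202), genes whose near-identical copies make their counts uncertain. Among 18 genes of the STAT3 and mucosal defence response, which drives *Reg3b* and *Reg3g* in epithelium, 10 were tested, 0 had an unadjusted p under 0.05, 0 were called by edgeR, DESeq2 or limma-voom, and the median was -0.32. The smallest p were those of *Il22ra1* (-0.96, adjusted p = 0.652), *Duox2* (0.73, adjusted p = 0.655) and *Stat3* (-0.25, adjusted p = 0.748).

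Part of the relatives of the 10 genes passed the filter, as given list by list below. By edgeR and limma-voom none of those had an adjusted p under 0.1. The DESeq2 Wald test called 1, *Plat*, as higher, against 1.65% of all genes called higher. At an unadjusted p under 0.05 there were 2, *Reg1* lower and *Plat* higher, against 3.75% of all genes lower and 5.40% higher. Of 5 further Reg genes 3 were tested, with *Reg1* at -0.77 (adjusted p = 0.499), *Reg3a* at -0.41 (adjusted p = 0.878) and *Reg4* at 0.32 (adjusted p = 0.890). None of 5 other pentraxins passed the filter, and their summed level was at most 3.60 CPM. Of 5 other lysozymes only *Lyz2* was tested (-0.90, adjusted p = 0.697). Of 7 angiogenin, ribonuclease A and inhibitor genes 5 were tested, and none had an unadjusted p under 0.05, *Rnase1* (-0.61, adjusted p = 0.589), *Rnase4* (-0.27, adjusted p = 0.631) and *Ang* (-0.33, adjusted p = 0.699) coming nearest. Of 10 other secreted phospholipases 7 were tested, led by *Pla2g2f* (1.33, adjusted p = 0.557), *Pla2g12b* (-0.59, adjusted p = 0.649) and *Pla2g3* (1.37, adjusted p = 0.668). Of 20 other matrix metalloproteinases and inhibitors 6 were tested, led by *Timp2* (0.61, adjusted p = 0.737), *Timp3* (-0.44, adjusted p = 0.812) and *Mmp15* (-0.21, adjusted p = 0.839), so none stood beside *Mmp7* in level, as their sum was 40.7 to 74.4 CPM. *Itlnb*, a further intelectin, was not analysed here. Of 4 kringle serine proteases *Plat* (1.17, adjusted p = 0.335) and *Hgfac* (0.67, adjusted p = 0.716) were tested.

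Summed markers of other cell types are given by label. No difference of a sum was tested, and neither was their part in the results above. The ranges of the labels were apart for the enterocyte, stem cell, enteroendocrine and stromal sums. They overlapped for the goblet, leukocyte and tuft sums. The tuft sum was 1.02 to 8.20 CPM in the libraries labelled Mll1-/- and 1.79 to 2.96 CPM in those labelled Mll1+/-. The 10 goblet markers summed to 725 to 1314 CPM in the libraries labelled Mll1-/- and 649 to 879 CPM in those labelled Mll1+/-, with a median of 0.63, and *Guca2a* (1.89, adjusted p = 0.165), *Muc2* (1.94, adjusted p = 0.202) and *Agr2* (0.93, adjusted p = 0.233) had the smallest p. *Zg16*, named after its values were seen, went the other way (-4.03, adjusted p = 0.385), at 0 to 2.94 against 2.38 to 37.4 CPM. The enterocyte markers (8 of 10 tested) summed to 377 to 418 and 469 to 571 CPM, with a median of -1.22 led by *Apoa1* (-1.16, adjusted p = 0.166), *Fabp2* (-0.93, adjusted p = 0.172) and *Anpep* (-1.27, adjusted p = 0.195). *Vil1*, named after its values were seen, was the only one with a fold change above 0 (0.42, adjusted p = 0.371), at 147.5 to 198 against 120 to 145 CPM. The 9 stem cell markers summed to 10789 to 17552 and 23006 to 27409 CPM, with a median of -0.21. They were led by *Slc12a2* (-0.87, adjusted p = 0.151), *Olfm4* (-0.77, adjusted p = 0.200) and *Axin2* (0.44, adjusted p = 0.384). *Olfm4* made up most of this sum, at 8056 to 14385 against 19222 to 22879 CPM, and *Slc12a2* was at 1165 to 1735 against 2148 to 2911 CPM. Of the 9 markers 2 had a fold change above 0 and 7 below, with *Lgr5* at -0.06. The enteroendocrine markers (5 of 10 tested) summed to 5.37 to 9.92 and 13.3 to 76.2 CPM, led by *Chgb* (-4.98, adjusted p = 0.139), *Chga* (-5.70, adjusted p = 0.245) and *Tac1* (-2.65, adjusted p = 0.615), and 1 of 8 tuft markers was tested (*Pou2f3*, 0.36, adjusted p = 0.949). The leukocyte markers (2 of 11 tested, *Cd68* -0.75 and *Cd14* -0.43, adjusted p = 0.615 and 0.660) summed to 19.4 to 41.9 and 36.9 to 50.5 CPM, and *Ptprc*, their defining gene, was at 0 to 0.954 CPM. Of the stromal and endothelial markers 2 of 7 were tested, *Vim* (4.48, adjusted p = 0.108) and *Pecam1* (-0.02, adjusted p = 0.991), and the list summed to 50.0 to 119.6 CPM against 5.41 to 11.7 CPM. *Vim* alone carried this difference, at 44.2 to 115 against 0.193 to 4.88 CPM, and the other 6 genes summed to 4.41 to 7.07 against 4.84 to 6.80 CPM. No gene of these marker lists had an adjusted p under 0.1 by edgeR. At an unadjusted p under 0.05 (5.40% of all genes higher, 3.75% lower) there were 4 goblet markers higher and 1 lower, 1 enterocyte marker higher and 5 lower, 1 stem cell marker higher and 2 lower, 2 enteroendocrine markers lower and 1 stromal marker higher. The DESeq2 Wald test, with 1.65% of all genes called higher and 1.09% lower, called 4 goblet and 1 stromal markers higher, and 4 enterocyte, 2 stem cell and 1 enteroendocrine markers lower. By limma-voom (0.341% higher and 0.286% lower) 1 goblet and 1 stromal marker were higher, and 2 enterocyte and 2 stem cell markers lower.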

How the data were processed

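Messenger RNA of a small number of cells, sorted from 1 mouse per library, was amplified by Smart-seq2. No molecular identifiers were used, and floors therefore cover counting error alone. The authors used GSNAP for alignment to mm10, counted uniquely mapped reads (mapping quality of at least 1, strand not used) on Ensembl release 92 with featureCounts 1.6.3, and deposited these raw counts for each gene, with the gene length as a further column. A second table deposited by the authors holds a signal, the counts of each library divided by 1 size factor (0.811 to 1.17, as recovered for all its genes within 0.5%). It was used only for the symbols and for these factors. Groups were taken from the sample titles. The edgeR p-values set the difference between the labels against the variation between mice of the same label. The exact p-values of the ratios come from reassigning the 8 libraries to the labels. Those of the correlations come from re-pairing the 8 libraries irrespective of label.

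filterByExpr (minimum count 10, minimum total 15) chose the genes, which were scaled with TMM and tested with edgeR 4.0.16 (robust quasi-likelihood, label as the only term, common biological coefficient of variation 0.435) in R 4.3.3, after the scripts were tested on simulated data. Exact permutation tests used scipy 1.17.1, log2 values a pseudocount of 0.5 CPM, shared words the GENCODE transcripts, alignments Biopython 1.88 and figures matplotlib 3.10.9. Alternatives were other scalings, DESeq2 1.42.0, limma-voom (limma 3.58.1), 2 filters, the 2 library runs as a block or alone, other pseudocounts and each library left out, and a covariate for *Xist* against Y-linked counts chosen after seeing the data.

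The members and the gene lists were chosen with earlier results of these data known. The genes named are all members, *Kmt2a* and *Ctnnb1*, the paralogs in the pair tests, for each list at most 3 tested genes with the smallest p, and for each member but *Pla2g2a* the 3 genes with the highest r. Genes named beyond this rule are given as named after their values were seen, and *Lgr5* and *Ptprc* as the defining genes of the sorted cells and of leukocytes. Spike-in transcripts had 0 to 36 counts and were not used. No pair of libraries agreed within sampling noise (chi-square per degree of freedom of at least 22.3).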

Additional observations from a re-analysis of the deposited data

Results flagged for a closer look

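The level of *Ang4* in J_7135 stood apart from the other 3 libraries labelled Mll1-/-. On the log2(CPM + 0.5) scale the gap between J_7135 (29.1 CPM) and the next library (71.5 CPM) made up 0.852 of the range of the 4 libraries, above Dixon's 95% critical value for 4 samples. On the linear CPM scale the same gap was 0.779 of the range, below that value. This was 1 of 20 combinations of gene and label tested, and chance alone gives about 1 in 20. J_7135 was also the lowest library of its label for *Itln1*, *Mptx1* and *Habp2* without passing the critical value. For *Mptx2* and *Reg3b* it was the lowest too, but there the ratio was taken for J_7136, the highest library. J_7135 is the library with high counts on both *Xist* and Y-linked genes.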

How the results depend on the processing

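No paired analysis was possible because the mouse numbers are not shared between the 2 labels. The number of members with an adjusted p under 0.1, which was 0 with edgeR, was 5 with the DESeq2 Wald test and 1 with limma-voom, without a filter and with at least 10 counts in every library, and 0 with each library left out. At an unadjusted p under 0.05 it was 5 in all of these and 5 to 6 with a library left out. The count over all genes, 14 with edgeR, was 8 with upper-quartile scaling, 406 with the DESeq2 Wald test, 103 with limma-voom, 47 without a filter, 34 with at least 10 counts in every library, 0 with the run as a block and 0 with the *Xist* covariate. It ranged from 0 to 45 with a library left out, at 45 without J_7135, 2 without J_7075 and 0 without any of the other 6.

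The log2 fold change of *Pla2g2a* turned to -0.55 with limma-voom, -0.22 with the run block and -1.86 in run 1 alone, and it ranged from -0.27 (without J_7136) to 1.06 (without J_7139) with a library left out. That of *Ang4* ranged from -0.43 (without J_7139) to 0.028 (without J_7135). The other 8 members kept their direction under every alternative run. The difference in the log2 ratio of *Lyz1* to *Lyz2* turned from 0.11 to -0.31 with a pseudocount of 5. With a library left out, that of *Mptx1* to *Mptx2* ranged from -1.33 to 0.11 (without J_7135), that of *Ang4* to *Ang* from -0.18 to 0.69 with a sign change without J_7075, J_7096, J_7136 or J_7139, and that of *Mmp7* to *Pla2g2a* from -0.011 (without J_7096) to 1.31. The cause of these turns was not tested. Counts per member and library lay between 13 (*Mptx1* in J_7135) and 38270, and counting error weighs most on *Mptx1* and *Habp2*.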
